A study of Mus musculus with 2 samples.

Results

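The HoxD cluster is a run of 9 homeobox genes, Hoxd1, Hoxd3, Hoxd4, Hoxd8, Hoxd9, Hoxd10, Hoxd11, Hoxd12 and Hoxd13, on mouse chromosome 2. The genes were taken from the deposited gene tables by joining each gene identifier, without its version, to its symbol in the GENCODE M21 annotation of the GRCm38 build. All 9 were found among the 43346 genes of the series. The annotated cluster covers 96833 bases on the plus strand, from the start of Hoxd13 at 74668310 to the end of Hoxd1 at 74765142. Neural tube, from which the brain and spinal cord form, was taken from healthy embryos of the B6NCrl strain at embryonic day 11.5, and its RNA was sequenced in an assay titled total RNA-seq by the submitters. The series held 1 group of 2 biological replicates: tissue of 109 embryos went into replicate 1 and tissue of 88 embryos into replicate 2, with males and females pooled in both and with 10 ng of RNA longer than 200 bases and synthetic spike-in RNAs in each library. Since no second group exists, nothing was tested and no p-value is given; values are set side by side with their spread.

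Hox genes encode DNA-binding proteins that give cells their position along the head-to-tail axis. In the developing spinal cord they act with cofactors of the Pbx and Meis families to set the identity of motor neurons and interneurons at each level. Genes at the Hoxd1 end of the cluster are known to be switched on earlier and to reach further towards the head, whereas those at the Hoxd13 end come on later and stay near the tail, an arrangement called collinearity. The cluster is also known for its role in the limbs, in which the genes at the Hoxd13 end pattern the forearm and the digits. In bulk tissue, fewer cells of a type and less RNA per cell cannot be told apart.

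The HoxD genes at the Hoxd1 end and in the middle of the cluster were present in this neural tube RNA, and the level dropped from Hoxd10 towards Hoxd13. At a level of 1 TPM (transcript abundance scaled for transcript length and library size) or more in both libraries, 8 of the 9 genes were detected, against 59.9% of 21474 protein-coding genes. Hoxd3 was the highest member and Hoxd13, the gene that did not reach 1 TPM, the lowest. Together the 9 genes took 4292.91 expected counts (estimated reads) in replicate 1 and 4724.43 in replicate 2. These were 0.0155% and 0.0162% of the library totals of 27638068 and 29166901.

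Of the genes nearest the Hoxd1 end, Hoxd1 itself (ENSMUSG00000042448.5, 74762980 to 74765142), known in mice for its part in wiring pain-sensing neurons, had 6.98 TPM in replicate 1 and 7.74 TPM in replicate 2. Its mean was 7.36 ± 0.537 TPM (SD, n = 2), from 214 and 245 counts. Hoxd3 (ENSMUSG00000079277.5, 74711927 to 74748442), a gene of the neck region of the axis whose loss changes the first neck vertebrae in mice, had 40.74 and 43.50 TPM. At 42.1 ± 1.95 TPM it stood above 82.5% of protein-coding genes, the highest place of any HoxD gene. Hoxd4 (ENSMUSG00000101174.2, 74711929 to 74729160), which is known to have its front border in the posterior hindbrain, had 7.19 and 8.89 TPM. Its mean of 8.04 ± 1.20 TPM rests on 229.75 and 279.93 counts, and both libraries placed it far below the overlapping Hoxd3.

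In the middle of the cluster, Hoxd8 (ENSMUSG00000027102.4, 74704615 to 74707933) had 16.57 and 18.27 TPM, a mean of 17.4 ± 1.20 TPM. Hoxd9 (ENSMUSG00000043342.9, 74697727 to 74700208), whose paralog group shapes the motor neuron columns of the trunk, had 13.43 and 11.29 TPM. Its level and that of Hoxd12 were the only ones in TPM that were higher in replicate 1, with overlapping counting intervals, and the Hoxd9 mean was 12.4 ± 1.51 TPM from 476 and 413 counts. Hoxd10 (ENSMUSG00000050368.4, 74691924 to 74695105), a determinant of lumbar motor neurons that supply the hindlimb, had 21.85 and 23.23 TPM. With 22.5 ± 0.976 TPM it was the second-ranked member and lay above 72.1% of protein-coding genes.

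At the Hoxd13 end, Hoxd11 (ENSMUSG00000042499.13, 74679557 to 74687016), which acts with Hoxa11 in the forearm and the kidney, had 6.34 and 6.74 TPM, a mean of 6.54 ± 0.283 TPM. Hoxd12 (ENSMUSG00000001823.5, 74675013 to 74677705), a limb patterning gene, had 1.68 and 1.62 TPM from 71 counts in each library. Hoxd13 (ENSMUSG00000001819.4, 74668310 to 74671599), the digit gene of the cluster, had 0.31 and 0.79 TPM from 13 and 34 counts. The 95% exact Poisson interval of the Hoxd13 count corresponds to 0.165 to 0.530 TPM in replicate 1 and to 0.547 to 1.10 TPM in replicate 2. The reads carry no molecular identifiers, so copies of a molecule may be counted as separate reads. These intervals come from the count of each library alone and cover counting error only. They did not overlap, with 0.530 TPM as the top in replicate 1 and 0.547 TPM as the bottom in replicate 2. Error beyond counting was not measured, so the intervals cannot settle whether the libraries differ on Hoxd13. Among genes with at least 10 counts in a library and under 1 TPM on average, 45.4% passed 1.5-fold between the libraries.

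**Figure D1:**
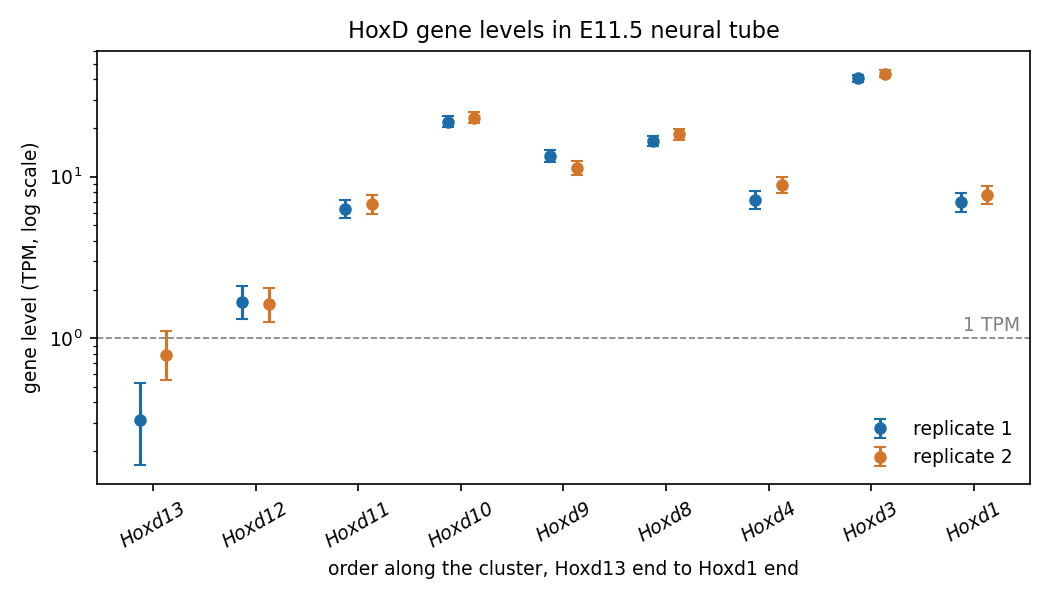
Level of each HoxD gene in replicate 1 and replicate 2, in TPM on a log scale, in order along the cluster from the Hoxd13 end to the Hoxd1 end. Points are library values and bars 95% exact Poisson intervals of the counts; Hoxd13 lies below the dashed line at 1 TPM except for the top of its interval in replicate 2, and Hoxd3 is highest at 40.74 and 43.50 TPM.

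Ordered by mean level, the genes ran Hoxd3, Hoxd10, Hoxd8, Hoxd9, Hoxd4, Hoxd1, Hoxd11, Hoxd12 and Hoxd13. Neighbours in this order were called apart where the counting interval of the higher gene lay above that of the lower gene in both libraries. That held for 6 of the 8 neighbouring pairs. Hoxd4 and Hoxd1 were not apart, and neither were Hoxd1 and Hoxd11, so the order within these 3 genes is not resolved. The widest gap by ratio was between Hoxd11 and Hoxd12, whose means differed 3.96-fold, followed by Hoxd12 over Hoxd13 at 3.0-fold. This ranking includes the processed transcript of Hoxd11; with protein-coding transcripts only, Hoxd11 over Hoxd12 was 2.14-fold, below the 3.0-fold of Hoxd12 over Hoxd13. Hoxd3 was 1.87 times as high as Hoxd10.

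Walking along the chromosome, the drop towards the tail-most genes fell in 3 successive steps. Hoxd11 had 3.45-fold less than its neighbour Hoxd10, with a log2 ratio of -1.79 in both libraries. With protein-coding transcripts only, the log2 ratios were -2.84 and -2.54, or 6.45-fold on average. Hoxd12 had 3.96-fold less than Hoxd11, with log2 ratios of -1.92 in replicate 1 and -2.06 in replicate 2. With protein-coding transcripts only, this step was smaller, with log2 ratios of -0.87 and -1.30, or 2.12-fold on average. Hoxd13 was lower than Hoxd12 by log2 ratios of -2.44 and -1.04, so the size of this last step differed between the libraries. From Hoxd10 to the Hoxd1 end there was no such run: Hoxd10 was above Hoxd9, Hoxd9 below Hoxd8, Hoxd8 above Hoxd4 and Hoxd3 above Hoxd1 in both libraries. Across the 9 genes, Spearman's rho between position, counted from the Hoxd1 end, and TPM was -0.60 in each library. The same description gave -0.05 and -0.03 over the 11 HoxA genes, -0.10 and -0.08 over the 10 HoxB genes, and -0.68 and -0.78 over the 9 HoxC genes. Genes of a cluster share a locus and a library, so these values only describe their order.

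Most of the Hoxd3 level was assigned to an RNA that is not annotated to make protein. Hoxd3-206, a single-exon transcript of the class named retained intron, had 27.05 TPM in replicate 1 and 33.72 TPM in replicate 2, from 1233.98 and 1587.01 counts. It took 66.4% and 77.5% of the Hoxd3 level. The 5 protein-coding transcripts of Hoxd3 summed to 13.69 and 9.78 TPM, a mean of 11.7 ± 2.76 TPM. Of these, Hoxd3-203, the transcript with the start farthest upstream, had 6.97 and 5.39 TPM, while Hoxd3-201 was given 0 counts in both libraries, with upper bounds of 3.04 and 2.60 TPM in the authors' deposited interval, whose confidence level is not stated. The protein-coding part was thus higher in replicate 1, whereas Hoxd3-206 was higher in replicate 2.

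Hoxd3-206 runs from 74745722 to 74748442 and is 2721 bases long. Its first 600 bases lie in the last intron of Hoxd3-203, which is 1766 bases long. The following 1950 bases (71.7%) are the last exon of Hoxd3-203, and 171 bases extend past that transcript's end. Most of the transcript is therefore sequence that spliced Hoxd3 RNA holds too, and the expected counts divide such reads between transcripts by the authors' estimate. The 2 annotated RNAs part at the edge of the last exon, printed here as DNA letters from the GENCODE transcripts, 30 bases on each side of the edge at 74746322. Capitals mark the shared last exon and lower case what precedes it, the retained intron in Hoxd3-206 and the previous exon in Hoxd3-203.
Hoxd3-206: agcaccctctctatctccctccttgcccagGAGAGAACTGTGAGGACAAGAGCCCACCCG
Hoxd3-203: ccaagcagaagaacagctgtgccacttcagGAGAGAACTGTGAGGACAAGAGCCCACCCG
The lower-case stretch of Hoxd3-206 ends in the letters ag that close the intron. Of these 2 RNAs, a read across the edge holds either this stretch or the spliced one. The protein-coding Hoxd3-204 also starts in this intron, at 74745674, and ends past the edge, at 74746596. Its sequence at the edge was not compared. The deposited tables give no counts of reads across the edge.

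Hoxd3 was the only member led by a non-coding transcript in both libraries, 1 of 9, against 4.86% of 12867 detected protein-coding genes. Retained-intron transcripts led in 1.64% of those genes. Of all 39 Hox genes, 3 were led by a non-coding transcript in both libraries. The other two were Hoxa7, led by Hoxa7-205, a target of nonsense-mediated decay by annotation, and Hoxa10, led by the processed transcript Hoxa10-203. Hoxd3-206 alone made up 23.5% and 27.6% of the summed HoxD level.

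Counted by protein-coding transcripts only, the cluster had another order, led by Hoxd10 at 22.5 TPM and Hoxd8 at 17.4 TPM. Hoxd9 at 12.4 ± 1.51 TPM and Hoxd3 at 11.7 ± 2.76 TPM followed and were not apart. Hoxd1 with 7.36 TPM, Hoxd4 with 5.44 TPM and Hoxd11 with 3.53 TPM came next; the neighbours among these 3 were not apart either. Hoxd12 at 1.65 TPM and Hoxd13 at 0.55 TPM closed the order as they did by gene. In this count 5 of the 8 neighbouring pairs were apart.

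**Figure D2:**
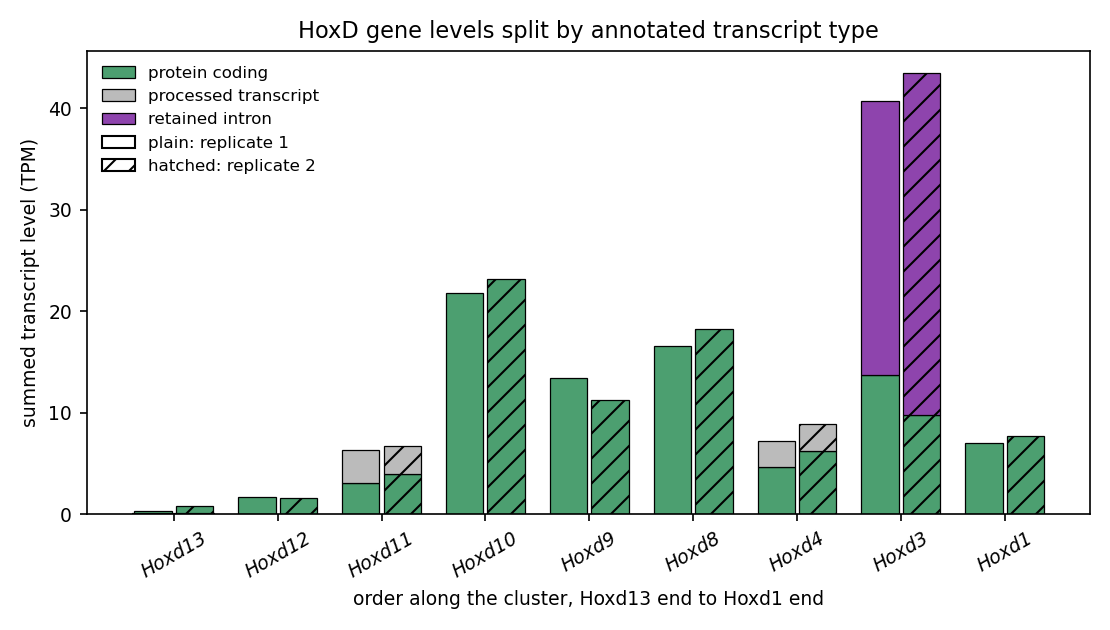
Summed transcript level of each HoxD gene in TPM, split by the annotated transcript type, with replicate 1 as plain bars and replicate 2 as hatched bars. The retained-intron part of Hoxd3, 27.05 and 33.72 TPM, is the largest block; Hoxd11 and Hoxd4 carry a processed-transcript part and the other 6 genes hold protein-coding transcripts only.

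Hoxd11 split its level between a pair of transcripts with different starts. The processed transcript Hoxd11-201 had 3.28 and 2.75 TPM, or 51.7% and 40.8% of the gene. The protein-coding Hoxd11-202, which starts 2766 bases downstream, had 3.06 and 3.99 TPM, or 48.3% and 59.2%. The leading transcript of Hoxd11 therefore differed between the libraries. This was so for 1 of the 4 HoxD genes with several transcripts, against 9.36% of 9313 detected protein-coding genes with several transcripts. The deposited intervals of the Hoxd11 transcripts overlapped, at 2.71 to 3.68 TPM in replicate 1 and 2.25 to 3.13 TPM in replicate 2 for Hoxd11-201, and at 2.19 to 3.87 TPM and 3.001 to 4.86 TPM for Hoxd11-202.

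Hoxd4 had 3 annotated transcripts, none of which held more than 46.7% of its level in either library. The protein-coding Hoxd4-201 led with 3.35 and 3.38 TPM. The processed transcript Hoxd4-203 had 2.56 and 2.64 TPM and starts 2 bases from Hoxd3-203, 10051 bases upstream of Hoxd4-201. The protein-coding Hoxd4-202 had 1.27 and 2.87 TPM, the least even of the 3 between the libraries. The start that Hoxd3-203 and Hoxd4-203 share gave 9.53 and 8.03 TPM together, 8.28% and 6.58% of the HoxD sum. Hoxd8 was nearly all Hoxd8-201, with 96.1% and 85.2% of its level, and the remaining 5 genes had 1 transcript each.

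Promoter sequences were read from the RefSeq table of the GRCm38.p6 build, 250 bases before to 50 bases after each RefSeq start on the plus strand. The table held 10 windows for the 9 genes, with a pair for Hoxd11. RefSeq starts are not always the GENCODE starts given above: 5 of the 10 were identical, while that of Hoxd13 lies 85 bases upstream of the GENCODE start, that of Hoxd3 66 bases downstream and the upstream start of Hoxd11 1 base downstream. The 5 windows of Hoxd13, Hoxd11, Hoxd3 and Hoxd4 are shown because they belong to the lowest member and to the genes whose starts or transcripts divide the level. Capitals mark each CG dinucleotide.
Hoxd13, chr2:74667975-74668274: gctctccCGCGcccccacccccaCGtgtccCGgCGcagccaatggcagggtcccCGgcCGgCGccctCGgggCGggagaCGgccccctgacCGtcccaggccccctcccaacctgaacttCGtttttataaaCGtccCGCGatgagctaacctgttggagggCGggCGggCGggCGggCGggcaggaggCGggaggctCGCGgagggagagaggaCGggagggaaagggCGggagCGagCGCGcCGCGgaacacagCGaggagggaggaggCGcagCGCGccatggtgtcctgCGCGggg
Hoxd11, upstream start, chr2:74679308-74679607: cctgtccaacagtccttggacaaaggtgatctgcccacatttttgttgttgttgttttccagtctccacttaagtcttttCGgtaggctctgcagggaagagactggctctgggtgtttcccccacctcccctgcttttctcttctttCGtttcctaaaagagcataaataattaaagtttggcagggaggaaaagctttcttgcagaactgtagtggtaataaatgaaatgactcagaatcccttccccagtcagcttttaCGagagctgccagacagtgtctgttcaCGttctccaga
Hoxd11, coding start, chr2:74682073-74682372: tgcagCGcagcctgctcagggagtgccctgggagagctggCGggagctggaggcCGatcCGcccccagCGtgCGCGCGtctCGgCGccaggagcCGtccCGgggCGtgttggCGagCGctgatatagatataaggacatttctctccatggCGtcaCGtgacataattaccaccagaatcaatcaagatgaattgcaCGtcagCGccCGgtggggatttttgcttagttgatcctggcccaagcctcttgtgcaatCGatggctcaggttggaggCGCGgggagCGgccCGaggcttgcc
Hoxd3, chr2:74711743-74712042: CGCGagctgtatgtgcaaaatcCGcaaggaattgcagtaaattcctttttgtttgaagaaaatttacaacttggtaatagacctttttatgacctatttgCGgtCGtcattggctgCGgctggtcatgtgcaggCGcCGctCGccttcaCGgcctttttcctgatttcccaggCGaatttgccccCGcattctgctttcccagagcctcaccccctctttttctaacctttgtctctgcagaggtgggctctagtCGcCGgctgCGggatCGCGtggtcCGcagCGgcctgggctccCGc
Hoxd4, chr2:74721728-74722027: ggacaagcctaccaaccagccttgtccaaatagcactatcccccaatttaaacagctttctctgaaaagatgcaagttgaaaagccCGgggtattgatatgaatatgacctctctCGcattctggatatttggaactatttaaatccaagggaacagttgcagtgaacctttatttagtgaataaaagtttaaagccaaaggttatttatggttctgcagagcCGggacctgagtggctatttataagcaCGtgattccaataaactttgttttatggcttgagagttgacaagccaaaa
The capitals are dense in the Hoxd13 window, with 37 CG dinucleotides and 74.3% G and C, although Hoxd13 was the lowest member. The windows of Hoxd11 differ between its starts, with 4 CG dinucleotides at the upstream start and 25 at the start of the coding transcript. Hoxd3 had 20 and Hoxd4 only 4, with 39.7% G and C. Over all 10 windows the median was 20 CG dinucleotides, against 7 over 32851 promoter windows of the same length. The letters TATAAA, searched on both strands, were present in 2 of the 10 windows, those of Hoxd13 and Hoxd4, and in 13.6% of all windows. The letters CCAAT on either strand were present in 7 of the 10 and in 37.4% of all windows. A match describes these letters and not a bound site.

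The annotation places 27 entries from 100 kb before to 100 kb after the cluster, and 26 of them were in the deposited tables. Outside the 9 members, 10 entries had at least 10 counts in a library. Beyond the Hoxd13 end, Evx2, the homeobox gene next to Hoxd13 on the minus strand, had 0.42 and 0.54 TPM from 30 and 40 counts, close to Hoxd13. Farther out, Lnpk, which encodes a protein of the endoplasmic reticulum, had 37.3 and 36.7 TPM. The processed pseudogene Mrpl23-ps1 was given 127.65 and 119.48 TPM, from expected counts of 1068.21 and 1031.65. Sequence that Mrpl23-ps1 shares with other genes was not examined, so its level may hold reads of another gene. Beyond the Hoxd1 end, Mtx2, a mitochondrial import gene, had 126.08 and 125.28 TPM. Evx2, Hoxd13 and Hoxd12 thus lay between protein-coding genes of higher level, Lnpk on one side and Hoxd11 on the other.

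Among the non-coding entries inside the cluster, Hoxd3os1, on the minus strand across the start of Hoxd3 and Hoxd4 and across Hoxd8, was the highest. It had 35.0 and 33.7 TPM from 392.3 and 390.84 counts, more than Hoxd4 and Hoxd8 in both libraries. Its transcript Hoxd3os1-201 starts 127 bases past the start of Hoxd3-203. Haglr, on the minus strand between Hoxd3 and Hoxd1, had 12.50 and 12.53 TPM. It starts 84 bases from the start of Hoxd1 and its far end overlaps Hoxd3-206 by 21 bases. Gm14424 had 3.03 and 3.36 TPM and Gm14396 had 1.41 and 1.39 TPM. Mir10b, a microRNA gene inside the annotated span of Hoxd4, has an effective length of 0 in the tables and could not be measured. No source used here says whether strand is recorded, so reads from opposite strands of an overlap were taken as not separable.

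On the same strand, annotated entries that span more than 1 member share sequence with them, which leaves the division of their counts uncertain. Gm28230, which spans Hoxd4 and Hoxd3, had 4.22 and 3.05 TPM from 251.65 and 187.66 counts. Of the 100-base windows of Hoxd3-203, 84.2% occur in a transcript of another gene on the same strand; for Hoxd3-206 the share was 57.2%, all with Gm28230. For Hoxd4-201 it was 39.01% and for Hoxd4-203 41.7%. Gm28309, which overlaps Hoxd11 and Hoxd10, had 4.95 and 8.19 TPM, and holds 16.6% of the windows of Hoxd11-202 and 10.9% of those of Hoxd11-201. Hoxd10 shared 0.349% of its windows, and Hoxd1, Hoxd8, Hoxd9, Hoxd12 and Hoxd13 shared none.

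**Figure D3:**
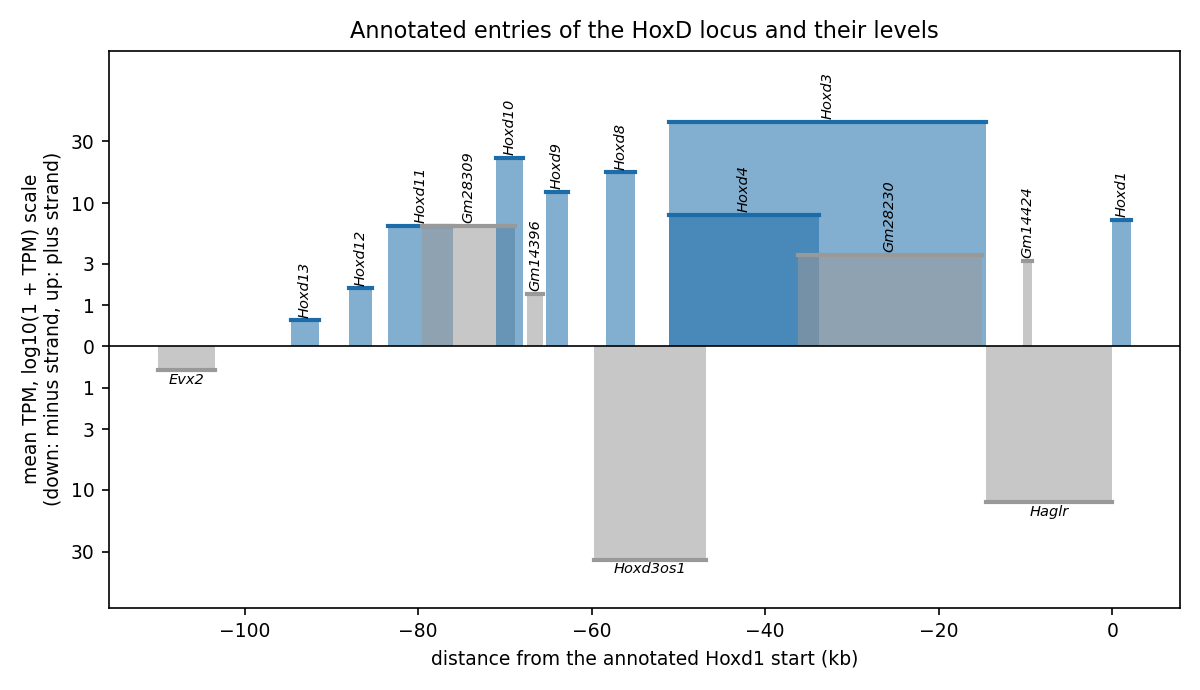
Annotated entries of the HoxD locus with at least 10 counts in a library, from Evx2 to Hoxd1, by distance from the Hoxd1 start in kb; bar height is the mean of both libraries on a log10(1 + TPM) scale, upwards for the plus strand and downwards for the minus strand. HoxD genes are blue and other entries grey; Hoxd3 covers Hoxd4 and Gm28230, and Hoxd3os1 reaches 35.0 and 33.7 TPM on the minus strand.

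HoxD was the cluster with the smallest share of Hox RNA. Its 9 genes held 11.1% of the summed TPM of the 39 Hox genes in replicate 1 and 11.5% in replicate 2, a mean of 11.3 ± 0.257%. HoxA held 30.8% and 29.7%, HoxB 30.5% and 31.2%, and HoxC 27.6% and 27.7%. HoxC has the same number of genes, 9. The median gene had 8.04 TPM in HoxD, 15.9 TPM in HoxA, 30.3 TPM in HoxB and 29.9 TPM in HoxC.

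HoxD genes were set beside their paralogs, the genes of the same number in the other clusters. Of the 9 genes, 6 were below the median of their paralogs in both libraries and 3 above it in both. The same count was not made for the genes of the other clusters, so it does not set HoxD apart from them. The ratios below used log2(TPM + 0.1). Hoxd9 stood lowest relative to its group, at 12.4 TPM against a paralog median of 50.6 TPM, a log2 ratio of -2.03 ± 0.31 (SD, n = 2). Its paralogs had 81.0 TPM (Hoxa9), 50.6 TPM (Hoxb9) and 29.9 TPM (Hoxc9), all with intervals above those of Hoxd9. Hoxd10 was 2.28-fold below its median, at 22.5 TPM against 56.4 TPM for Hoxa10 and 46.6 TPM for Hoxc10, and its log2 ratio of -1.19 ± 0.01 was the most even between libraries. With protein-coding transcripts only, the Hoxd10 ratio was -0.57, and Hoxd10, with 21.85 and 23.23 TPM, then lay above Hoxa10, with 21.6 and 19.5 TPM, in both libraries. Hoxd8 was 2.11-fold lower, at 17.4 TPM against 22.1 TPM for Hoxb8 and 51.4 TPM for Hoxc8.

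Smaller differences were seen for Hoxd4 and Hoxd12. Hoxd4 had 8.04 TPM beside 8.61 TPM for Hoxa4, 2.74 TPM for Hoxb4 and 51.0 TPM for Hoxc4. Its log2 ratio to the median was -0.10 ± 0.06, and its counting intervals overlapped those of Hoxa4 in both libraries. Hoxd1 had 7.36 TPM beside 12.9 TPM for Hoxb1. Hoxd12 had 1.65 TPM beside 2.995 TPM for Hoxc12, its only paralog, with log2 ratios of -0.46 and -1.12.

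Hoxd3, Hoxd11 and Hoxd13 were the members above their paralog median. Hoxd3 had 42.1 TPM against 15.9 TPM for Hoxa3 and 9.38 TPM for Hoxb3, a log2 ratio of 1.73 ± 0.16. With protein-coding transcripts only, the Hoxd3 ratio was 0.37 in replicate 1 and -0.07 in replicate 2, so its direction then differed between libraries. Hoxd11 had 6.54 TPM against 5.04 TPM for Hoxa11 and 1.55 TPM for Hoxc11, a log2 ratio of 0.97 ± 0.11. With protein-coding transcripts only it was 0.01 and 0.71. Hoxd11, with 3.06 and 3.99 TPM, was then below Hoxa11, with 4.62 and 3.19 TPM, in replicate 1 and above it in replicate 2. Hoxd13 had 0.55 TPM beside 2.72 TPM for Hoxc13, 0.265 TPM for Hoxb13 and 0.14 TPM for Hoxa13, with log2 ratios of 0.15 and 1.31 to the median. The 7 and 3 counts of Hoxa13 leave the low end of that group uncertain.

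**Figure D4:**
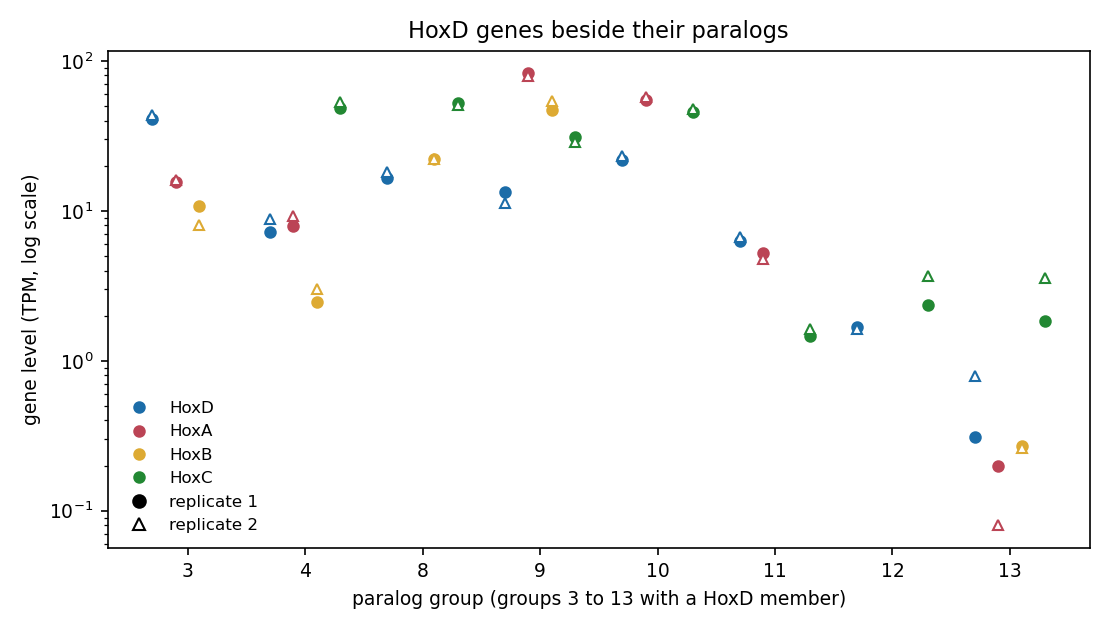
Levels of HoxD genes and their HoxA, HoxB and HoxC paralogs in TPM on a log scale, by paralog number from group 3 to group 13, with filled circles for replicate 1 and open triangles for replicate 2. By gene level HoxD (blue) is lowest in groups 8, 9, 10 and 12 and highest in groups 3 and 11. The HoxD, HoxA and HoxC genes of group 11 lie below those of group 10. With protein-coding transcripts only, Hoxd10 is above Hoxa10 in both libraries. Hoxd11 is then below Hoxa11 in replicate 1, and Hoxd3 is not above its paralog median in replicate 2.

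Between the pools, HoxD genes were close except for Hoxd13. By log2 ratio of replicate 1 over replicate 2 from counts scaled by trimmed mean of M values (TMM), 1 of the 9 genes passed 1.5-fold, against 10.8% of 17219 genes with at least 10 counts in a library. That gene was Hoxd13, at -1.18, or 0.440 of its replicate 2 level; 4.87% of genes passed 1.5-fold in that direction. Among genes with that many counts and a mean under 1 TPM, 45.4% passed 1.5-fold. The other 8 ratios lay between -0.19 for Hoxd4 and 0.29 for Hoxd9. The members' median was -0.04, against 0.00 over all those genes, and 5 members were higher in replicate 2 and 4 in replicate 1. Hoxd11 and Hoxd8 had ratios of 0.12 and 0.04 by counts but -0.09 and -0.14 by deposited TPM, since their estimated effective lengths differed between the libraries.

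Of the other Hox genes with numbers 11 to 13, 3 of 6 were higher in replicate 2, as Hoxd13 was. Hoxc13 had 76 and 152 counts, a log2 ratio of -0.90. Hoxc12 had 38 and 61 counts, a log2 ratio of -0.57, and Hoxc11 a log2 ratio of -0.10. Hoxa13 went the other way with 7 and 3 counts, Hoxb13 had 10 and 10, and Hoxa11 had a ratio of 0.20. Hoxd12 had 71 counts in both pools and Hoxd11 had 240.15 and 233.93, so the HoxD genes next to Hoxd13 differed little between the pools.

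**Figure D5:**
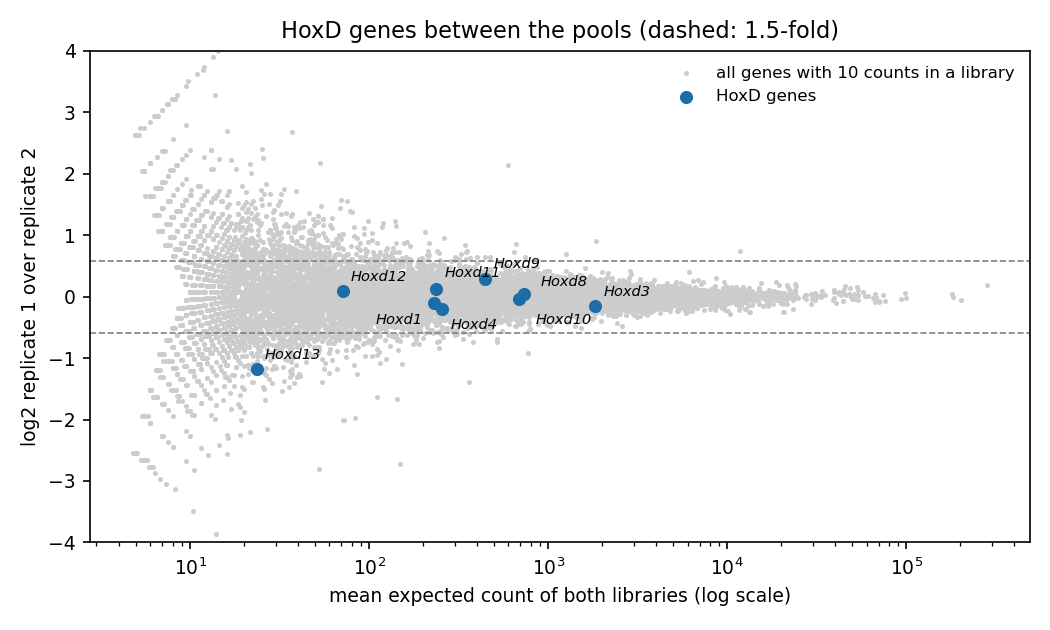
Log2 ratio of replicate 1 over replicate 2 against the mean expected count of both libraries (log scale), for HoxD genes in blue and for all genes with at least 10 counts in a library in grey; ratios beyond 4 either way are not drawn. Dashed lines mark 1.5-fold, and Hoxd13 at -1.18 is the HoxD gene outside them.

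The tissue label was set beside marker lists. No other tissue was measured, so no list was checked for being specific to its tissue. All 5 genes listed for neural cells of the spinal cord were detected, which does not tell spinal cord from other neural tissue. They were led by the neuronal tubulin gene Tubb3 at 679 and 802 TPM. Elavl3 and Sox2 had 41.2 and 24.4 TPM on average. Hoxd10 is known to act in motor neurons that supply limbs. Of 5 genes listed for these cells 5 were detected, against 59.9% of protein-coding genes, with sums of 281 TPM in replicate 1 and 331 TPM in replicate 2. Bulk levels do not show which cells made this RNA, so the sums are not a measure of limb motor neurons. Isl1, Foxp1 and Aldh1a2 led this list with 97.7, 89.3 and 77.2 TPM. Genes listed for other embryonic tissues in which HoxD genes are on were also detected. Of 7 genes listed for somite and paraxial mesoderm 6 were detected, against 59.9% of protein-coding genes. The list summed to 118 and 109 TPM, led by Uncx at 41.3 TPM, Tcf15 at 32.2 TPM and Meox1 at 17.2 TPM. Tbx6 was at 0.40 TPM. Whether these RNAs came from somite cells or from the neural tube itself was not tested.

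Limb bud and tailbud markers were read as well. Of 7 limb bud mesenchyme markers 4 were detected, with sums of 46.7 TPM in replicate 1 and 35.4 TPM in replicate 2. Prrx1, Prrx2 and Pitx1 had 27.2, 8.95 and 3.04 TPM, whereas the limb field genes Tbx5 and Tbx4 had 0.24 and 0.175 TPM. The limb list did not move as one between the libraries. Prrx1 had 30.23 TPM in replicate 1 and 24.24 TPM in replicate 2, whereas Tbx5 had 8 and 25 counts and Tbx4 had 8 and 10. Of 5 genes listed for the tailbud 3 were detected, also close to the 59.9% of protein-coding genes. The list summed to 6.40 and 5.83 TPM. Wnt3a, Cyp26a1 and T had 2.35, 1.97 and 1.44 TPM, Fgf8 was at 0.365 TPM, and Msgn1 had 0 counts, which allows up to 0.369 and 0.357 TPM at 3 counts. Bulk levels do not show whether these RNAs came from limb bud or tailbud cells or from the neural tube itself. The part of these tissues in the HoxD levels was not tested. Aldh1a2, Cyp26a1 and Fgf8 each stand both in a marker list and in the list of Hox regulators.

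Partners and regulators of HoxD genes were given from lists of known factors. For each count of detected genes, the share over all protein-coding genes was 59.9%. All 9 genes of the Meis, Pbx and Pknox cofactor families, which bind DNA together with Hox proteins, were detected, with a median of 36.8 TPM. Meis1 had 147 TPM, Meis3 had 142 TPM and Meis2 had 89.8 TPM, each higher than any HoxD gene. Of 11 genes of the retinoic acid, Cdx, Fgf8 and Gdf11 routes, 7 were detected, close to that share. These routes are known to act on the switching on of Hox genes. Tgfbr1, a Gdf11 receptor gene, had 87.1 TPM, Aldh1a2, whose enzyme makes retinoic acid, had 77.2 TPM, and Rara, a receptor gene for it, had 58.2 TPM. Cdx2 and Cdx4, which act in the tailbud, had 0 counts in both libraries; 3 counts would be 0.0798 and 0.0773 TPM for Cdx2 and 0.0925 and 0.0897 TPM for Cdx4. All 9 Polycomb genes, whose proteins keep Hox genes silent where they are off, were detected, with a median of 32.0 TPM and with Rnf2, Ezh2 and Cbx2 at 119, 95.6 and 49.7 TPM.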

How the data were processed

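Total RNA-seq of 2 neural tube libraries was analysed. Expected counts and TPM values per gene and per transcript, and the percent of each transcript in its gene, were deposited by the authors, and the deposited file descriptions name the mm10 build and the GENCODE M4 annotation. No source used here names the aligner or quantifier. The assay is titled total RNA-seq, but the labels cite a SmartSeq protocol, and which describes the libraries is not settled here. Effective lengths in the deposited tables were 99 bases below the lengths. Spike-ins count towards the TPM total, with 13.2% and 11.8% of it.

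Of 43346 gene identifiers, 42462 matched GENCODE M21. Expected counts were rounded to whole numbers for edgeR 4.0.16 in R 4.3.3 (TMM factors 0.996 and 1.004, a prior count of 2 and a minimum of 10 counts in either library). Alternative size factors came from DESeq2 1.42.0. Intervals are 95% exact Poisson intervals of the counts. Ratios to paralogs used a pseudocount of 0.1 TPM. Shared sequence was the percent of 100-base windows found in another gene's transcript. Python 3.11.15 with numpy 2.4.6, pandas 2.3.3 and scipy 1.17.1 did the other steps. The ratio and interval steps were tested on simulated data. With 1 group of 2 libraries, no test between groups and no likeness of pattern across samples was possible.

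The 9 genes, the lists and the alternatives were chosen with earlier results of these data known. Genes named were the 9 members, other Hox genes, locus entries with at least 10 counts in a library together with Evx2, Mtx2 and Lnpk, and of each list the 3 highest and up to 2 below 1 TPM in both libraries. The result for 1 paralog is not reported here.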

Additional observations from a re-analysis of the deposited data

How the results depend on the processing

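Over the 8 results and 44 alternatives, 36 values were labelled close to the one reported, 8 moved and 0 reversed. Counts and the share cannot change sign, so only the rho and the Hoxd11 over Hoxd10 ratio could reverse. For rho, this ratio and the share, moved meant beyond the SD of the replicates, 6.4e-05 for the ratio. A single replicate always lies within that SD of the mean, so leaving out a replicate could not give moved there. Counts had a looser rule, with 7 against 8 members detected labelled close. Restricting each gene to its leading transcript gave a rho of -0.57 between position and level, a Hoxd11 over Hoxd10 log2 ratio of -2.69 and a HoxD share of 11.7% of Hox TPM. Restricting genes to protein-coding transcripts, an alternative chosen after seeing the data, gave -0.48, -2.69 and 9.60%. Posterior mean TPM gave a ratio of -1.77. The drop from Hoxd10 to Hoxd11 was thus larger without the processed transcript of Hoxd11. With protein-coding transcripts only, Hoxd3 was no longer the highest member, and its ratio to the paralog median differed in sign between the libraries. Leaving out each replicate in turn gave 8 detected members, a rho of -0.60, a log2 ratio of -1.79, a share of 11.1% to 11.5%, 6 members below their paralog median, 6 neighbouring pairs apart and 1 to 2 members led by a non-coding transcript. The value of 2 comes from replicate 1 alone, in which Hoxd11-201 led Hoxd11. At 2 TPM, 7 members were detected, Hoxd12 dropping out. The pairs called apart numbered 7 by the range of the library values and 5 by the deposited interval, which was chosen after seeing the data, as was leaving out a replicate for this order.

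Scaling by spike-in totals shifted the median log2 ratio of all genes by -0.20. Hoxd8, Hoxd11 and Hoxd12 then had ratios of -0.15, -0.07 and -0.11, and relative to that shift 0.04, 0.12 and 0.09. Hoxd13 stayed the 1 member past 1.5-fold under every scaling run. No paired analysis was possible because the series holds 1 group. Depth limits Hoxd13, with 13 and 34 counts, and the transcript shares of Hoxd3, Hoxd4 and Hoxd11 rest on the authors' division of shared reads.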
